A study of Mus musculus with 4 samples.

Results

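The genes described here are 10 transcription factors and hormone receptors of the mammary epithelium: the epithelium-specific ETS factors Ehf, Elf5 and Elf3, the lineage factors Trp63, Gata3 and Foxa1, the hormone receptors Esr1, Pgr and Prlr, and Stat5a. They were chosen by name, and all 10 were found among the 50679 genes of the deposited table. The 4 libraries were of cells from mouse mammary tumours: 2 labelled PCNA 211F and 2 labelled PCNA WT. All 4 carry PyMT, the polyoma middle T oncogene that drives mammary tumours, and differ by label in PCNA, the sliding clamp of DNA replication. Per the labels, the tumours came from mice of 10 weeks, were dissociated into single cells and captured with an antibody against EpCAM. The captured cells were plated in serum-containing medium (density 100000), and their molecular subtype is labelled luminal. The sources used here do not name the promoter that drives PyMT or the strain, and do not say whether the 2 libraries of a genotype came from separate animals; p-values therefore reflect library-to-library spread, which may be technical.

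As background, the mammary gland has a basal layer and a luminal layer, and the luminal layer holds hormone-sensing and alveolar cells. p63, the product of Trp63, maintains basal cells. GATA3 and FOXA1 act in luminal cells and cooperate with the oestrogen receptor, the product of Esr1, which in turn induces the progesterone receptor gene Pgr. Prolactin binds the receptor encoded by Prlr and signals through the kinase JAK2 to STAT5A, and ELF5 joins STAT5A in driving the alveolar programme.

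Levels are in FPKM, that is, fragment numbers divided by transcript length in kilobases and by the library's mapped total. Sums of FPKM ran from 544399 to 564977 per library, and reads per gene are not in the table. From the steps between low values, 3 fragments in 1 kb were worth 0.0777 FPKM in 211F 1, 0.0913 in 211F 2, 0.0852 in WT 1 and 0.0497 in WT 2. Of the 40 values of these genes, 39 lay at or above 3 fragments on the gene's longest transcript; the exception was Pgr in 211F 2. The libraries were set against their labels by cell type markers. Of 9 epithelial markers, 8 reached 1 FPKM in 211F 1, 8 in 211F 2, 9 in WT 1 and 0 in WT 2. Their summed level was 1018 FPKM in 211F 1, 2072 in 211F 2, 2179 in WT 1 and 4.11 in WT 2. Epcam, the capture antigen, was at 77.3 FPKM in 211F 1 and 449.6 in 211F 2, compared with 443.6 in WT 1 and 0.893 in WT 2. The labelled luminal epithelial type was therefore not borne out by these markers in WT 2. In the other libraries the basal keratin gene Krt14 was also abundant, at 1297 FPKM in 211F 1, 1722 in 211F 2 and 1058 in WT 1. The 9 markers thus do not settle whether those libraries were luminal. Fibroblast markers summed to 46.0 FPKM in 211F 1 and 6.27 in 211F 2, compared with 12.2 in WT 1 and 1078 in WT 2. Endothelial, myeloid, lymphoid and adipocyte lists each summed to at most 4.59 FPKM in any library, with the lymphoid genes at or below 0.0645 FPKM. In bulk RNA of this kind, fewer cells of a type and less RNA per cell cannot be told apart.

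Ehf, Elf5 and Elf3 encode ETS-domain transcription factors largely restricted to epithelium. All 3 were abundant in 211F 2 and WT 1 and low in 211F 1 and WT 2. Ehf (chromosome 2, 103263433 to 103303278, minus strand, GRCm38) had 3.84 FPKM in 211F 1 and 145.4 in 211F 2, compared with 237.5 in WT 1 and 1.70 in WT 2. Elf5, the alveolar regulator (chromosome 2, 103411688 to 103450989, plus strand), was at 0.331 FPKM in 211F 1 and 45.1 in 211F 2, compared with 32.0 in WT 1 and 0.143 in WT 2. Elf3 (chromosome 1, 135253575 to 135258568, minus strand) had 0.576 FPKM in 211F 1 and 8.54 in 211F 2, compared with 11.0 in WT 1 and 0.252 in WT 2. The genotypes overlapped in each of the 3 genes, because each genotype held a high and a low library. Between the 2 high and the 2 low libraries lay a gap of 96.8-fold for Elf5, 37.8-fold for Ehf and 14.8-fold for Elf3, taken as the second highest over the third highest FPKM value. Exons of Elf3 overlap the gene Gm26642 on the other strand, so reads may be shared if counting ignored strand, which the sources used here do not state.

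Summed over the 3 factors, the level was 4.75 FPKM in 211F 1 and 199.0 in 211F 2, compared with 280.5 in WT 1 and 2.09 in WT 2. Ehf made up 80.9% of that sum in 211F 1 and 73.0% in 211F 2, compared with 84.7% in WT 1 and 81.1% in WT 2. Elf5 held 22.7% of it in 211F 2 and 11.4% in WT 1, and Elf3 held at most 12.1% in any library. Ehf was thus the main transcript of the group in all 4 libraries, high or low. By contrast, Elf1, Elf2 and Elf4, ETS factors of broader expression, stayed within 11.8 to 40.4 FPKM throughout, and the ETS gene Spdef was at or below 0.108 FPKM.

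**Figure D1:**
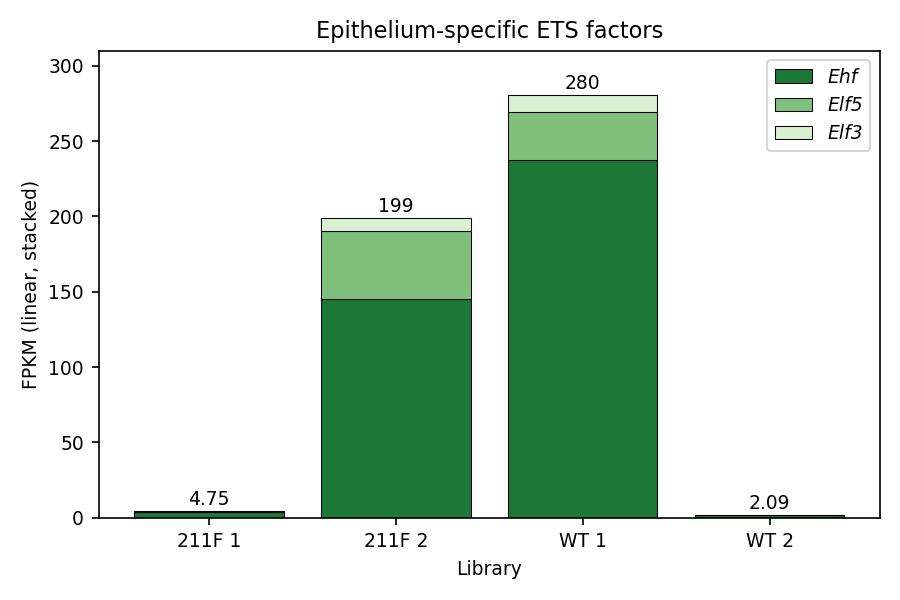
Stacked FPKM (linear axis) of Ehf, Elf5 and Elf3 in each library, with the sum above each bar. The sums were 4.75 in 211F 1 and 199.0 in 211F 2, compared with 280.5 in WT 1 and 2.09 in WT 2.

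The promoter windows of genes in this shared pattern are printed because their levels moved together; the letters are RefSeq's for GRCm38.p6, 5′ to 3′ on the gene's own strand, from 250 bases before the annotated start to 50 bases from it on. Capitals mark matches on either strand to CAGGTG, the E2 box bound by the ZEB and SNAIL repressors of epithelial genes, or to TTCNNNGAA, the core of STAT sites. Stat5a, which did not share the pattern, is shown for comparison. Only windows with such a match are printed, and the other windows of Prlr and Stat5a held neither motif. No window was at hand for Ehf or Trp63, so neither gene was searched.
Elf3, chr1:135258423-135258722, minus strand: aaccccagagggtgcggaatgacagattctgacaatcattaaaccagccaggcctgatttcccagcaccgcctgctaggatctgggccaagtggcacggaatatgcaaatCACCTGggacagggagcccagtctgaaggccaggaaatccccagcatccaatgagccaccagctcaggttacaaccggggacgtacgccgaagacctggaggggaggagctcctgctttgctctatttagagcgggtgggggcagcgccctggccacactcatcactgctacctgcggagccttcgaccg
Elf5, upstream start, chr2:103411848-103412147, plus strand: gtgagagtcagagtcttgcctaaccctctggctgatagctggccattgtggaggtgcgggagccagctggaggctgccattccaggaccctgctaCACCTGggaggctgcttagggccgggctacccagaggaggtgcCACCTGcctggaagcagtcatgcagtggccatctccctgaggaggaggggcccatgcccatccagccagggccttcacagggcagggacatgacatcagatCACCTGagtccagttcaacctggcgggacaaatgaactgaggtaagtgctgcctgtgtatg
Elf5, downstream start, chr2:103423818-103424117, plus strand: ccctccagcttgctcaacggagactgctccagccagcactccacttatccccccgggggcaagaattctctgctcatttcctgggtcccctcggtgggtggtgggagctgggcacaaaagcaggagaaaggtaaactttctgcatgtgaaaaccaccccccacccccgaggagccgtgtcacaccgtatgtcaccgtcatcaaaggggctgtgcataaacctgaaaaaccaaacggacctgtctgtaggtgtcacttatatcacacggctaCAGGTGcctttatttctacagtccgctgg
Prlr, second start, chr15:10223656-10223955, plus strand: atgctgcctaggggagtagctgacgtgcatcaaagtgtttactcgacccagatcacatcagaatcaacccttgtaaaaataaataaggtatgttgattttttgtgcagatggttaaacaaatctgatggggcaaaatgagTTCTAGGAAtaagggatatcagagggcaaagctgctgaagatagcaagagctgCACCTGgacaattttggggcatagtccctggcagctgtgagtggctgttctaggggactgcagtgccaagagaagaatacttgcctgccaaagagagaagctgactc
Stat5a, upstream start, chr11:100859406-100859705, plus strand: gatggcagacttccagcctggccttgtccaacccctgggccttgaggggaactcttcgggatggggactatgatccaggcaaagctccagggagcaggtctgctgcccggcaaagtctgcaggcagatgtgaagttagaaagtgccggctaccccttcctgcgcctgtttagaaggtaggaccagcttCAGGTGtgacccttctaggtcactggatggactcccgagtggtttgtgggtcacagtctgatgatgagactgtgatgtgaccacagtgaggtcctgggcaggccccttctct

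The Elf3 window held an E2 box that began 140 bases before the start. The upstream Elf5 window held 3, which began 155, 112 and 11 bases before it, and the downstream Elf5 window held 1, which began 21 bases after it. In all, 13 windows were at hand for 8 of the 10 genes, and 7 of the 13 held an E2 box, against 20.2% of 32851 windows of the same length over the genome. Windows of the same gene are not independent: by gene, 6 of the 8 held an E2 box in a window, against 22.6% of 27025 genes. Per gene, these 8 had more windows than genes of the genome at large, and so more places for a match. The windows with a match included those of Pgr and Stat5a, whose libraries stood in other orders, and of Foxa1, which had the order of Ehf and Elf3 over a span of 0.49 log2 units. TTCNNNGAA was in 2 of the 13 windows (8.3% of all windows), 1 each of Prlr and Esr1. CCGGAA, a core of ETS sites, was in 1, that of Gata3 (14.9% of all windows). The letters AGATAA, bound by GATA3 and its kin, were in 0 (11.2% of all windows). The matches did not overlap one another. A match describes the letters of a window and not the binding of a factor, and the motifs were chosen with the expression values known.

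**Figure D2:**
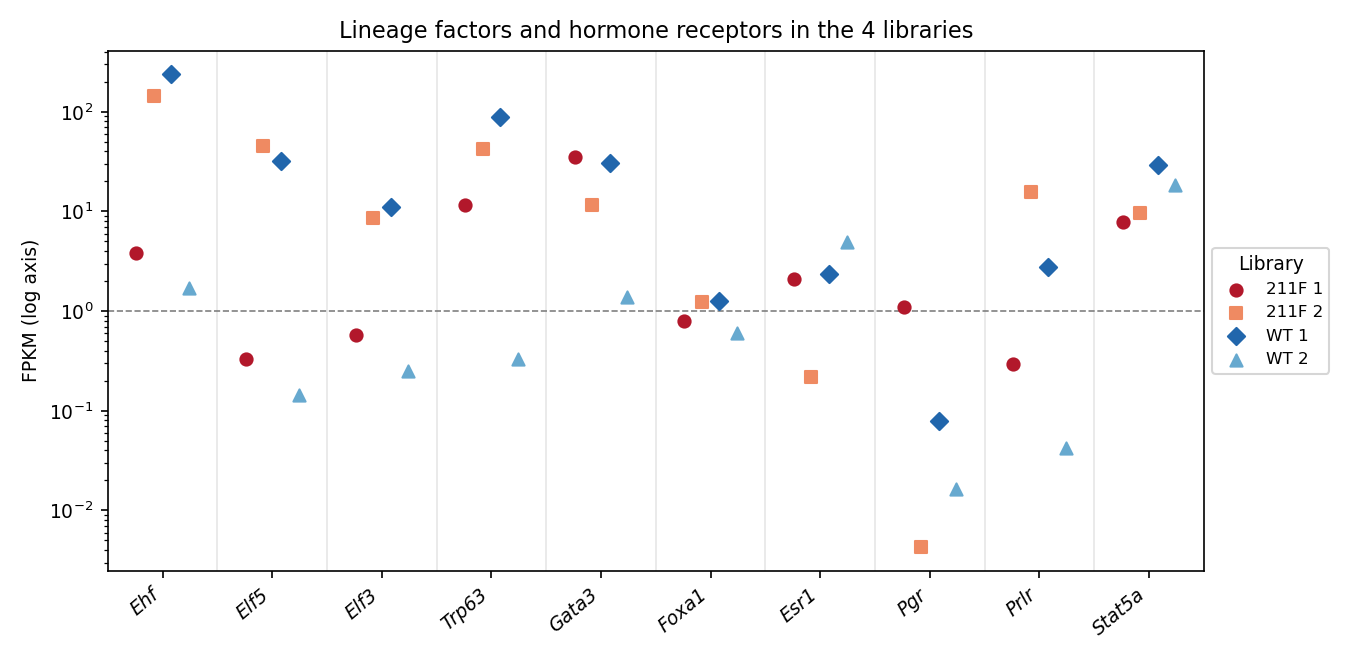
FPKM on a log axis for the 10 genes, with 1 symbol per library (211F 1, 211F 2, WT 1, WT 2 from left to right) and a dashed line at 1 FPKM. WT 2 was the lowest library in 7 of the 10 genes, and Ehf, Elf5 and Elf3 were high in 211F 2 and WT 1 alone.

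Trp63 (chromosome 16, 25683763 to 25892102, plus strand) followed a graded order. It was at 11.5 FPKM in 211F 1 and 42.2 in 211F 2, compared with 89.6 in WT 1 and 0.329 in WT 2. Both 211F libraries lay between the 2 WT libraries, so the genotypes overlapped. The table gives 1 value per gene, so the long and the amino-terminally shortened forms of p63 are not separated.

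Genes that p63 regulates or that mark basal cells were mostly low in WT 2 as well. Of 18 listed genes, all 18 passed the filter of a mean of at least 1 FPKM, and 15 had a positive difference (211F minus WT in log2(FPKM + 1)) and 3 a negative one, with a median of 2.32; over all 12767 tested genes 53.1% were positive and the median was 0.03. None passed limma at an adjusted p of 0.05 over all genes, and 1 of the 18 had an unadjusted p under that value. The list's median level was 74.97 FPKM in 211F 1 and 104.3 in 211F 2, compared with 127.0 in WT 1 and 0.996 in WT 2, and without WT 2 the median difference was -0.34.

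Basal keratins differed in how they followed Trp63. Krt17 had the same order of libraries as Trp63, at 380.7 and 475.2 FPKM in 211F against 492.8 and 0.764 in WT. Krt14 was at 1297 and 1722 FPKM in 211F, against 1058 in WT 1 and 2.41 in WT 2. Its partner Krt5 was at 1029 FPKM in 211F 1 and 3.84 in 211F 2, compared with 244.7 in WT 1 and 1.23 in WT 2. In 211F 2, then, Trp63 and Krt14 were abundant while Krt5 was at a level near that of WT 2. A separate list of 7 basal or myoepithelial markers, which includes Krt5 and Krt14, summed to 2915 FPKM in 211F 1 and 1726 in 211F 2, compared with 1305 in WT 1 and 108.5 in WT 2. Of the 7, 4 reached 1 FPKM in 211F 1 and 2 in 211F 2, compared with 3 in WT 1 and 5 in WT 2. Unlike Krt5 and Krt14, its members Acta2, Cnn1 and Mylk were not lowest in WT 2. Acta2, smooth muscle actin, which activated fibroblasts also make, was at 442.2 and 0.0739 FPKM in 211F against 0.600 and 95.8 in WT. Cnn1, the actin-binding protein calponin, was at 145.2 and 0.127 FPKM in 211F against 0.0812 and 6.79 in WT, and Mylk, myosin light chain kinase, at 0.193 and 0.0188 against 0.269 and 2.24. Sfn, the cell cycle checkpoint protein 14-3-3 sigma, was at 221.4 and 227.3 FPKM in 211F against 127.7 and 0.528 in WT. Fermt1, an integrin activator of keratinocytes, was at 20.8 and 25.7 against 19.6 and 0.0266 FPKM. Trp73, the p63 paralog, was at 0.246 and 0.964 FPKM in 211F against 8.22 and 0.0275 in WT, and the broadly expressed Trp53 at 195.3 and 92.3 against 106.8 and 122.7.

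Gata3 (chromosome 2, 9857078 to 9890034, minus strand) was the one lineage factor with its highest level in 211F 1. It was at 35.0 FPKM in 211F 1 and 11.5 in 211F 2, compared with 30.5 in WT 1 and 1.38 in WT 2. The lowest library was again WT 2, whereas 211F 1, low for Ehf, Elf5 and Elf3, slightly exceeded WT 1. The other GATA factors were together highest in WT 2, where Gata3 was lowest. Gata2, Gata4 and Gata6 together came to 9.004 FPKM in 211F 1 and 0.231 in 211F 2, compared with 0.989 in WT 1 and 15.3 in WT 2. Gata2 alone was at 1.84 and 0.221 FPKM in 211F against 0.123 and 7.84 in WT. Gata4 was at 3.79 and 0 FPKM in 211F against 0.532 and 2.60 in WT, and Gata6 at 3.37 and 0.00964 FPKM against 0.334 and 4.84 FPKM. 211F 1 therefore held Gata3 beside Gata2, Gata4 and Gata6 transcripts, and WT 2 held those 3 with little Gata3. Exons of Gata3 overlap 9230102O04Rik on its own strand and Gm13256 on the other, and 0.731% of its 50-base windows also occur in transcripts of 9230102O04Rik.

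Foxa1 (chromosome 12, 57540628 to 57546916, on the minus strand), the pioneer factor that opens chromatin for the oestrogen receptor, was low in every library. It was at 0.797 FPKM in 211F 1 and 1.23 in 211F 2, compared with 1.25 in WT 1 and 0.604 in WT 2. It had the smallest spread of the 10 genes, 0.49 log2 units from highest to lowest library, and with a mean of 0.972 FPKM it fell under the filter and was not tested. Its paralog Foxa2 was listed at 1.68 FPKM in WT 1, with 0.174 as the highest of the other values, and Foxa3 did not exceed 0.0634.

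Esr1 (chromosome 10, 4611593 to 5005614, plus strand) had its highest level in the library with the least epithelial RNA. It was at 2.09 FPKM in 211F 1 and 0.219 in 211F 2, compared with 2.34 in WT 1 and 4.96 in WT 2. Both 211F libraries were below both WT libraries, although 211F 1 and WT 1 differed by only -0.11 in log2(FPKM + 1). The difference was -1.20 ± 0.70 (SE; limma adjusted p = 0.9999), which did not pass the test. Without WT 2 it was -0.78 and without 211F 2 it was -0.53, and its sign could not turn because the groups do not overlap. The second oestrogen receptor gene, Esr2, was at or below 0.134 FPKM.

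Pgr (chromosome 9, 8899833 to 8968611, plus strand) was detected above a trace in 1 library. It was at 1.10 FPKM in 211F 1 and 0.00428 in 211F 2, compared with 0.0782 in WT 1 and 0.0163 in WT 2. The value in 211F 2 is under the 0.0133 FPKM that 3 fragments on the longest transcript were worth there. With a mean of 0.2998 FPKM over the libraries Pgr was not tested. Greb1, a target of the oestrogen receptor, was also highest in 211F 1, at 1.91 FPKM, with 0.0908 in 211F 2, 0.125 in WT 1 and 0.334 in WT 2. Tnfsf11, the RANKL gene that the progesterone receptor induces in the mammary gland, was at 0.980 FPKM in 211F 1 and 0 in 211F 2, compared with 0 in WT 1 and 0.0620 in WT 2. So the 3 transcripts shared their highest library, each near or below 2 FPKM. Greb1 and Tnfsf11 were singled out after their values were seen, and not all genes listed for hormone-sensing cells shared that library. Wnt4 was at 1.77 and 11.4 FPKM in 211F against 14.2 and 1.08 in WT, and Areg was highest in 211F 2.

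Of 18 listed genes of luminal hormone-sensing cells, 12 passed the filter, and 6 were positive and 6 negative with a median of -0.10; 0 were called by limma, and 1 had an unadjusted p under 0.05. The median was -1.32 without WT 2, 1.40 without WT 1 and 0.42 without 211F 1. The gene with an unadjusted p under 0.05 was Tbx3, a T-box factor of the early mammary gland, at 0.0595 and 1.03 FPKM in 211F against 4.54 and 14.5 in WT (difference -2.66 ± 0.73, SE; limma adjusted p = 0.9999). Areg, the EGF family ligand amphiregulin that acts downstream of the oestrogen receptor, was at 11.3 and 32.7 FPKM in 211F against 8.41 and 0.315 in WT. Krt8, a luminal keratin, was at 505.2 and 582.0 FPKM in 211F against 432.6 and 0.828 in WT. Krt19, another luminal keratin, reached 112.8 FPKM in WT 1 but no more than 0.0834 in any of the other 3 libraries. In 211F 2, which resembled WT 1 in Ehf, Elf5 and Elf3, Krt19 was thus near 0.

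Cofactors of the steroid receptors were expressed in all 4 libraries, each at 3.19 FPKM or more. Of 15 listed genes all 15 were tested, and 7 were positive and 8 negative with a median of -0.01 (-0.08 to 0.05 when each library was left out); 0 were called by limma, and 0 had an unadjusted p under 0.05. Hsp90aa1, the chaperone that holds steroid receptors ready for ligand, was at 695.3 and 550.3 FPKM in 211F against 451.9 and 421.5 in WT. Carm1, an arginine methyltransferase coactivator, was at 54.6 and 49.8 against 51.9 and 39.5 FPKM. Ncoa3, a coactivator, had 9.37 and 16.5 FPKM in 211F against 21.4 and 12.0 FPKM in WT, and Pgrmc2, a membrane component, had 28.5 and 21.4 against 26.2 and 32.5. Among related nuclear receptors, the glucocorticoid receptor gene Nr3c1 stayed between 21.6 and 31.0 FPKM, and Esrra was at 10.9 and 35.8 FPKM in 211F against 38.7 and 10.8 in WT.

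Prlr (chromosome 15, 10177238 to 10349180, plus strand) was highest in 211F 2. It was at 0.294 FPKM in 211F 1 and 15.7 in 211F 2, compared with 2.76 in WT 1 and 0.0427 in WT 2. The level in 211F 2 was 2.15 log2(FPKM + 1) units above WT 1, the largest gap between these 2 libraries among the 8 tested genes. The order of libraries was that of Elf5: 211F 2, WT 1, 211F 1, WT 2. Ghr, the growth hormone receptor of the same family, was lowest in 211F 2 and WT 1, at 44.9 and 8.49 FPKM in 211F against 11.5 and 36.6 in WT. Epor, also of that family, was at 0.193 and 2.04 against 2.54 and 1.38 FPKM. Exons of Prlr overlap Gm21973 on the same strand, and 1.03% of its 50-base windows occur in other genes' transcripts.

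Stat5a (chromosome 11, 100859351 to 100885169, plus strand) was the gene whose genotypes lay farthest apart relative to its spread. It was at 7.88 and 9.61 FPKM in 211F, against 29.3 and 18.6 in WT. Both 211F libraries were below both WT libraries, and each of the 4 pairs of a 211F with a WT library differed by -1.77 to -0.88 log2 units. The difference was -1.33 ± 0.35 (SE) with an unadjusted p of 0.0190, and it did not pass over all genes (limma adjusted p = 0.9999). The difference ranged from -1.64 to -1.01 when each library was left out, and its sign could not turn because the groups do not overlap. By fold of FPKM its highest library was 3.71 times its lowest, against 43.5-fold for Elf3 and 140-fold for Ehf.

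Stat5a is next to a close copy, Stat5b, with which it shares 8.21% of its 50-base windows. Its exons also overlap those of Stat3 on the other strand. Its reads may be shared with Stat5b, and with Stat3 if counting ignored strand, which the sources used here do not state. Stat5b was at 14.2 and 16.2 FPKM in 211F against 23.6 and 17.8 in WT, a difference of -0.41 ± 0.29 (SE; limma adjusted p = 0.9999). The ratio of Stat5a to Stat5b was 0.557 and 0.592 in 211F, against 1.24 and 1.04 in WT. Stat3 was at 67.1 and 107.6 FPKM in 211F against 187.7 and 74.0 in WT. Stat6, a related factor of interleukin signalling, was at 67.8 and 82.2 against 73.4 and 56.9 FPKM.

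Cish, a feedback inhibitor that STAT5 induces, had groups in the same order as Stat5a. It was at 4.61 and 3.35 FPKM in 211F against 11.6 and 6.55 in WT, a difference of -0.98 ± 0.43 (SE; limma adjusted p = 0.9999). Socs2, another STAT5-induced feedback gene, was not lower in both 211F libraries, at 18.2 and 13.6 FPKM against 12.7 and 15.7 in WT. The kinase gene Jak2 was at 18.6 and 8.53 against 8.05 and 15.2 FPKM. Of 15 listed genes of prolactin and STAT5 signalling all 15 were tested, and 6 were positive and 9 negative with a median of -0.05; 0 were called by limma, and 0 had an unadjusted p under 0.05. Genotypes did not overlap in 7 of the 15 (2 higher and 5 lower in 211F), against 26.8% of all tested genes (15.2% higher and 11.6% lower). Among the 7 were Akt1, a kinase of survival signalling (178.9 and 195.1 FPKM in 211F against 139.3 and 113.7 in WT) and Cav1, the caveolar protein that restrains JAK2 (200.3 and 190.5 against 271.4 and 445.7).

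**Figure D3:**
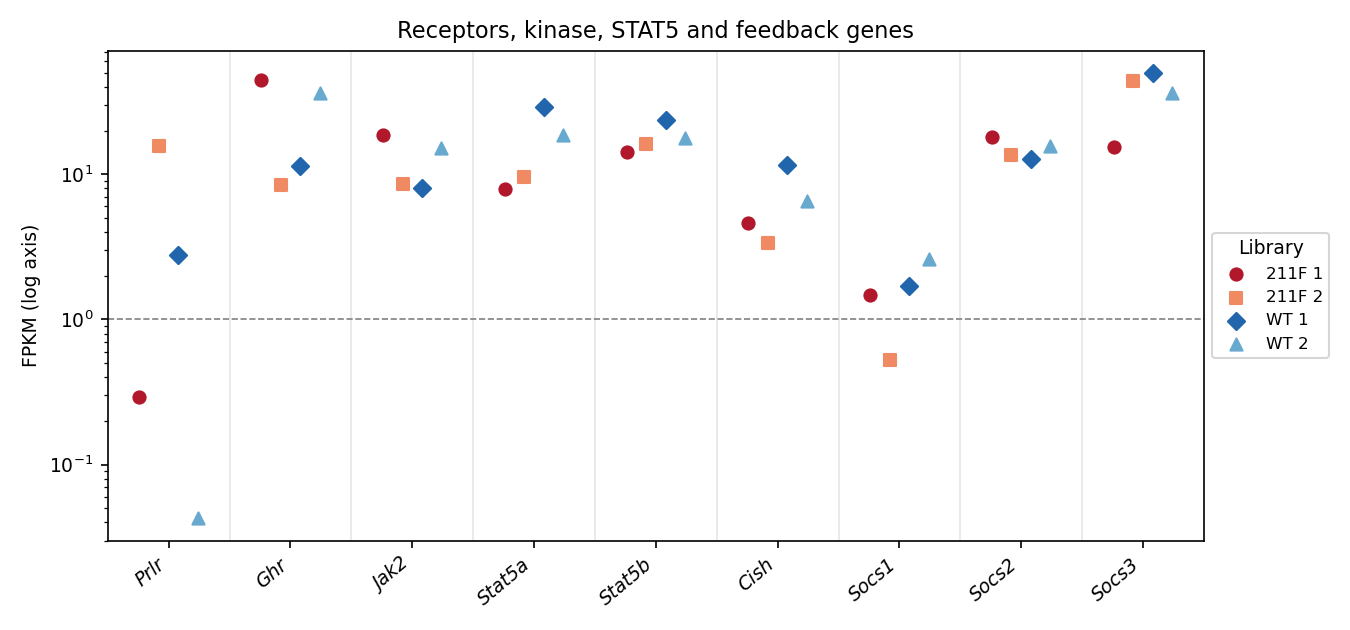
FPKM on a log axis for Prlr, the growth hormone receptor gene Ghr, the kinase gene Jak2, Stat5a, Stat5b and 4 feedback inhibitor genes, with 1 symbol per library. Stat5a, Stat5b, Cish and Socs1 were lower in both 211F libraries than in both WT libraries, as were 11.6% of all tested genes. The genotypes overlapped in Ghr, Jak2, Socs2, Socs3 and Prlr, and Prlr was highest in 211F 2, the library where Ghr was lowest.

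Some alveolar and progenitor genes had the library order of Elf5 and others did not. Of 17 listed genes 12 passed the filter, and 5 were positive and 7 negative with a median of -0.78; 0 were called by limma, and 0 had an unadjusted p under 0.05. The list's median level was 0.645 FPKM in 211F 1 and 0.694 in 211F 2, compared with 8.29 in WT 1 and 0.104 in WT 2. Without WT 1 the median difference was 2.12, without WT 2 it was -1.69 and without 211F 2 it was -0.41. The tight junction genes Cldn3 and Cldn7 had the order of Elf5. Cldn3 was at 15.2 and 148.2 FPKM in 211F against 91.2 and 0.136 in WT, and Cldn7 at 5.07 and 85.1 against 60.1 and 0.0703. Ltf, the milk protein lactoferrin, was also high in 211F 2 and WT 1, at 1.58 and 49.0 FPKM in 211F against 379.4 and 0.293 in WT. The milk protein genes Csn2 and Csn3 stood at 8.29 and 5.33 FPKM in WT 1, whereas elsewhere they did not exceed 0.0591 and 0.645. So 211F 2 had more Elf5 and Prlr than WT 1 but caseins near 0. Kit, the receptor of luminal progenitors, stood at 17.6 FPKM in WT 1 and did not exceed 0.694 in the other libraries. Cd14, a monocyte antigen also found on luminal progenitors, was at 3.55 and 12.6 FPKM in 211F against 67.2 and 7.53 in WT, and Mfge8, a milk fat globule protein, at 147.8 and 79.1 against 156.0 and 171.9.

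Across the 8 tested genes, 0 were called between the genotypes. limma called 0.0% of the 12767 tested genes at an adjusted p of 0.05, and 241 (1.89%) had an unadjusted p under 0.05, against 1 of the 8. Of the 8, 6 had a positive difference and 2 a negative one, with a median of 0.21. The genotypes did not overlap in 2 of the 8, Esr1 and Stat5a, against 26.8% of all tested genes, a share close to the background. Both were lower in 211F, as were 11.6% of all tested genes in this way, and 0 of the 8 were higher, against 15.2%. An exact two-sided permutation test of 2 against 2 libraries cannot give a p below 0.333.

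The 2 libraries of each genotype were far apart in most of these genes. The WT libraries were at least 1 log2 unit apart in 6 of the 8 genes, against 24.5% of all tested genes. The 211F libraries were that far apart in 7 of the 8, against 19.1% of all tested genes. Across genotypes, 211F 2 and WT 2 were apart in 7 of the 8 (24.7% of all tested genes), 211F 1 and WT 1 in 6 (20.1%), 211F 2 and WT 1 in 5 (10.4%) and 211F 1 and WT 2 in 3 (17.1%). For Ehf the WT libraries differed by 6.47 log2 units and the 211F libraries by -4.92 (replicate 1 minus replicate 2 in both), and the mean difference was 0.07 ± 2.87 (SE). Elf3 (0.00 ± 1.52), Elf5 (0.35 ± 2.50), Trp63 (1.08 ± 2.25), Prlr (1.23 ± 1.51) and Gata3 (1.29 ± 1.44) likewise had standard errors above their differences. Without WT 2 the differences were -3.16 for Ehf, -1.63 for Elf3, -2.08 for Elf5, -1.96 for Trp63 and -0.57 for Gata3. Without 211F 2 they were -2.39 for Ehf, -1.30 for Elf3, -2.21 for Elf5 and -0.61 for Prlr. The summed epithelial markers were lowest in WT 2 and next lowest in 211F 1, as were Ehf, Elf5, Elf3, Trp63 and Prlr. The sum was 1018 FPKM in 211F 1 against 2179 in WT 1, and its markers differed among themselves. In the same order, Krt8 was at 505.2 against 432.6 FPKM, Epcam at 77.3 against 443.6 and Cldn7 at 5.07 against 60.1. Ehf was at 3.84 against 237.5 FPKM. Gata3 was lowest in WT 2 but highest in 211F 1. The part of epithelial content in these differences was not tested.

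**Figure D4:**
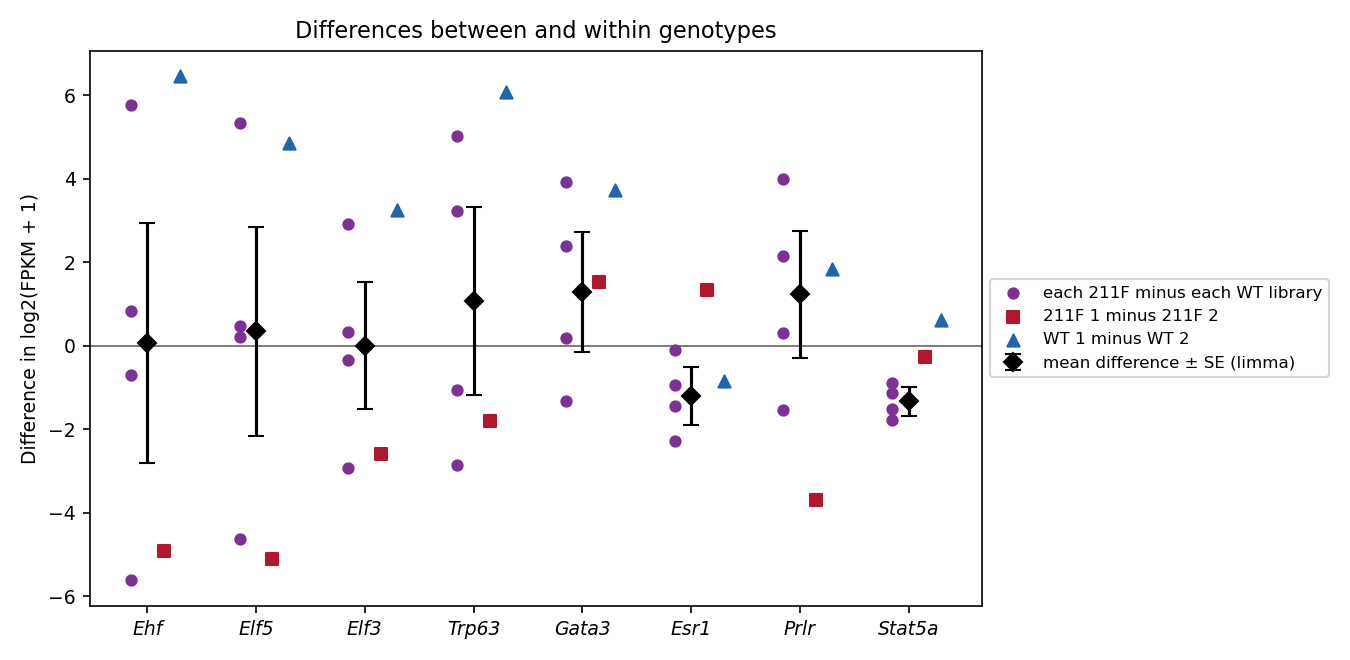
Differences in log2(FPKM + 1) for the 8 tested genes: circles are each 211F library minus each WT library, diamonds the mean difference with its standard error from limma, squares 211F 1 minus 211F 2 and triangles WT 1 minus WT 2. Circles fall on both sides of 0 for all genes but Esr1 and Stat5a.

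Among 24 listed paralogs of the 10 genes, 14 passed the filter, and 3 were positive and 11 negative with a median of -0.14; limma called 0, and 0 had an unadjusted p under 0.05. Of the 24, 15 reached 1 FPKM in at least 1 library.

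The spread of these genes over the libraries was large. From highest to lowest library the 8 genes spanned a median of 3.96 log2 units, against 0.82 over all tested genes. Ehf, at 6.47, had a wider span than 99.2% of tested genes, Trp63 (6.09) than 98.9% and Elf5 (5.33) than 98.1%. Gata3 (3.92) exceeded 95.2% of them and Elf3 (3.26) 92.3%, and Prlr, between Gata3 and Elf5, exceeded 95.4%. Esr1 (2.29) and Stat5a (1.77) were wider than 85.4% and 79.2% of tested genes.

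**Figure D5:**
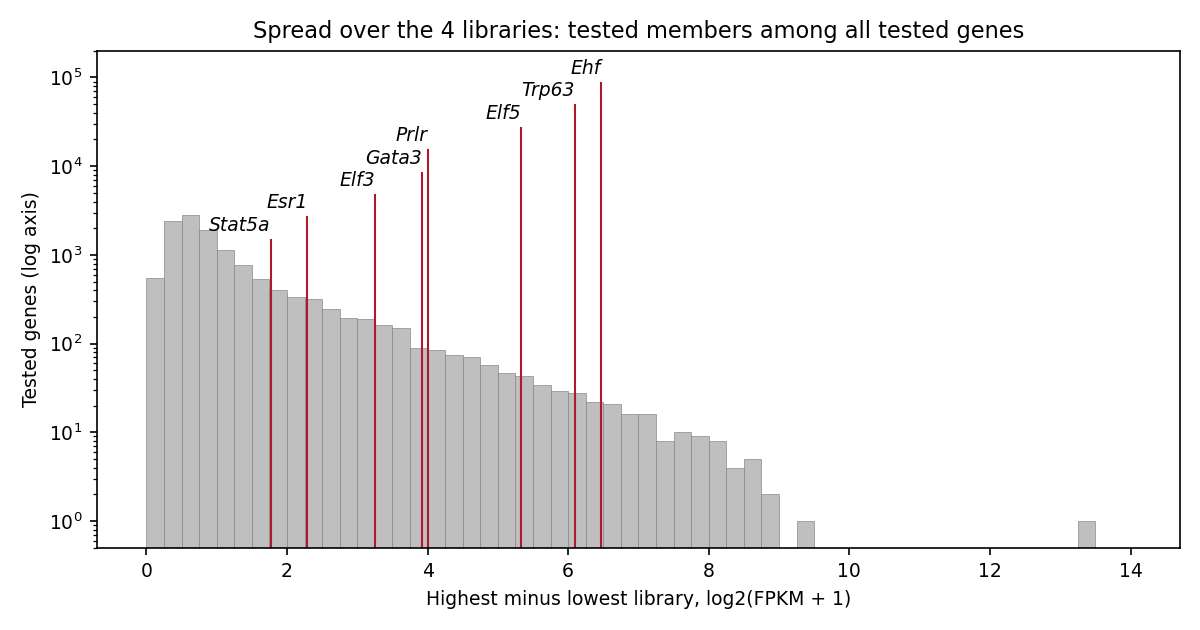
Histogram of the span from highest to lowest library in log2(FPKM + 1) over all 12767 tested genes (count on a log axis), with a line for each of the 8 tested members. The members run from Stat5a at 1.77 to Ehf at 6.47, all above the median gene at 0.82.

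Likeness of patterns was measured as the root mean square distance between log2(FPKM + 1) profiles over the 4 libraries, each centred on its own mean. Among the members, Ehf and Elf5 were the closest pair, at 0.59 log2 units. Outside them, the nearest genes to Ehf were Fam83a (0.16) and Cited4 (0.40), and to Elf5 Ap1m2 (0.11) and Slc39a4 (0.26); Nod2 (0.13) was among the nearest to Elf3. The nearest to Trp63 were Urah (0.11) and Mapk13 (0.24), to Gata3 Galnt18 (0.29) and Anxa8 (0.30), and to Prlr Adgrf4 (0.22) and Notumos (0.24). For Esr1 they were Eno3 (0.07) and Syt17 (0.10), and for Stat5a Lrrc32 (0.06) and Arrdc4 (0.10). With 4 libraries such nearness describes the order and size of 4 values only. Ap1m2, an epithelial clathrin adaptor subunit, was at 0.518 and 47.5 FPKM in 211F against 38.1 and 0.105 in WT, close to Elf5 in every library.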

How the data were processed

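RNA-seq was made from 4 libraries, 2 of each genotype, with a strand-specific kit, per the labels. FPKM per Ensembl gene were deposited by the authors in a single table; the submitters' processing notes name TopHat2 2.0.13, DESeq2 and the build GRCm38 without saying what each was for. Which program and annotation gave the FPKM, how strand was used and whether libraries were rescaled is not stated in these sources. A very abundant gene lowers the FPKM of the others. Symbols were matched by identifier for 50369 of 50679 genes, with gene positions from GENCODE M21 (GRCm38).

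The fragment size of a step was estimated from 1971 genes with a single transcript of at least 3000 bp, where 91.2% to 93.3% of low values were whole within 0.1 of a fragment; it puts depth relative to WT 1 at 1.10 for 211F 1, 0.933 for 211F 2 and 1.72 for WT 2, and covers counting error only. A mean of 1 FPKM or more was required, and genes were tested on log2(FPKM + 1) with limma 3.58.1 in R 4.3.3 (two-sided, intensity trend, Benjamini-Hochberg over all tested genes at 0.05), after a test on simulated data; differences are 211F minus WT and understate low genes. Members, lists and tests were chosen with earlier results of these data known. Named genes are all members, up to 4 genes of smallest p per list, paralogs reaching 1 FPKM and the 2 nearest profiles per tested member; others were picked after their values were seen, and some genes these rules name are not reported here.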

Additional observations from a re-analysis of the deposited data

How the results depend on the processing

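limma called 0 of all tested genes and 0 members in each of the 13 alternatives; members at an unadjusted p under 0.05 numbered 0 to 2. Of 102 recomputed member differences 88 kept their sign and 14 turned, 9 of these when a library was left out. A changed filter, the fit without an intensity trend and the replicate blocks cannot alter a difference in this balanced design. The share that kept its sign therefore overstates how stable the signs were. Differences turned for Ehf with a pseudocount of 5 (-0.14) and upper quartile scaling (-0.021), and for Elf3 with a pseudocount of 5 (-0.077), quantile normalization (-0.25) and upper quartile scaling (-0.073); the cause was not tested, and both differences lie near 0 with all libraries (0.07 and 0.00). Leaving out each library gave -3.16 to 3.30 for Ehf, -1.63 to 1.63 for Elf3, -2.21 to 2.91 for Elf5, -1.96 to 4.13 for Trp63, -0.57 to 3.16 for Gata3 and -0.61 to 3.08 for Prlr. Ehf, Elf3, Elf5, Trp63 and Gata3 turned negative without WT 2, and Ehf, Elf3, Elf5 and Prlr without 211F 2. Esr1 (-1.87 to -0.53) and Stat5a (-1.64 to -1.01) cannot turn when a library is left out, since their groups do not overlap. Where 1 library of a genotype remains, its spread is taken from the other genotype. Of 78 recomputed list medians 1 moved beyond the spread between replicates, that of alveolar and progenitor genes without WT 1 (2.12, against -0.78). That spread holds the gap between the libraries of a genotype, so large shifts could count as not moved. The median of the p63 and basal list, for example, went from 2.32 to -0.34 without WT 2 and to 5.32 without WT 1. The count is therefore no measure of stability.

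The labels do not say that replicate numbers pair the libraries, and same-numbered deviations had r = -0.465 over 12767 genes. Genes at an unadjusted p under 0.05 numbered 745 with no filter (more genes tested) and between 226 and 843 in fits lacking a library. With the replicate block limma called 0 genes and 142 had an unadjusted p under 0.05, against 241; with the crossed block, added after the data were seen, it called 0 and 520. Depth limits Pgr, Tnfsf11 and other values near 3 fragments, and 2 libraries a group limit the rest.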
